A study of Mus musculus with 3 samples.

Results

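The genes that make and remodel cardiolipin were examined in poly(A) RNA from the hearts of wild-type (WT) male mice aged 12 weeks. They were chosen by name, as the 9 rows of the deposited gene table with the symbols Taz, Crls1, Ptpmt1, Pgs1, Lclat1, Tamm41, Cds1, Cds2 and Pld6, out of 16587 genes in all. Taz is the older symbol of tafazzin. The series holds 3 libraries of a single group, so no treatment or genotype was compared. Neither the strain nor whether each library is a different animal is stated in the labels. The p-values below thus speak only of the spread among these 3 libraries, and that spread may be technical. Heart tissue holds several cell types, and in such bulk RNA fewer cells of a type and less RNA per cell cannot be told apart.

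Cardiolipin is the phospholipid characteristic of the inner mitochondrial membrane, where it surrounds the respiratory complexes and the ATP/ADP carrier. It is built from phosphatidic acid, which is activated to CDP-diacylglycerol and then passed through phosphatidylglycerol phosphate and phosphatidylglycerol. The fatty acids of new cardiolipin are afterwards exchanged, and heart cardiolipin is known for carrying mostly linoleic acid. In humans, loss of tafazzin causes Barth syndrome, in which cardiomyopathy is a leading sign.

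The libraries held 25311388, 26398140 and 24914479 counts. All 8 cardiomyocyte markers of the list were detected, among them the cardiac myosin Myh6 at 23308 ± 2627 CPM (counts per 1000000 counts of the library; mean ± SD, n = 3), with 2 of 4 atrial genes detected. Of the atrial genes Nppa had 11640, 5952 and 5797 counts, Myl4 130, 50 and 117, Myl7 0, 1 and 8 and Sln 0, 0 and 1. Myl7 and Sln were thus below the limit, while the cardiomyocyte marker Myl2 had 294442, 308556 and 269029 counts. How much atrial tissue the libraries held was not tested. Transcripts of 7 liver genes summed to 121, 2.99 and 6.70 CPM in libraries 1, 2 and 3, with 1 of the 7 detected. The 5 mesothelial genes summed to 20.1, 15.0 and 25.8 CPM with 1 detected. Of these Msln, Upk3b, Lrrn4 and Krt19 had more than 2 counts in library 3 alone, whereas Wt1 had 506, 395 and 252 counts. The 5 erythroid genes summed to 2221, 1047 and 1697 CPM in libraries 1, 2 and 3. In the same order 6 endothelial genes summed to 1245, 1195 and 1459 CPM and 6 fibroblast genes to 1263, 1485 and 1533 CPM. The 6 macrophage genes summed to 897, 855 and 843 CPM. Several of these values move with single libraries, and their part in the differences between libraries given below was not tested.

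Of the 9 cardiolipin genes 8 were detected, which means 1 CPM or more in every library, and 71.3% of all genes in the table met that rule. Levels of different genes were compared as TPM (counts divided by the annotated exon length of the gene and rescaled so that a library sums to 1000000). Pairs of genes were also compared as ratios of counts per kilobase, and values without length correction served only as an alternative. The median of the 9 genes was 18.3 TPM, against 7.31 TPM over the 16077 genes with a known length and 15.1 TPM over the 11628 of these that were detected. Together the 9 genes took 502, 509 and 519 CPM in libraries 1, 2 and 3. Cds2 and Lclat1 made up 63.2 ± 2.33% of their summed TPM (n = 3).

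CDP-diacylglycerol can be made by 3 enzymes, and their transcripts were far from equal. Cds1 and Cds2 are membrane enzymes of the endoplasmic reticulum, which also supply phosphatidylinositol synthesis, and Tamm41 is the unrelated enzyme inside mitochondria. Cds2 stood at 74.3, 68.3 and 80.1 TPM in libraries 1, 2 and 3. Cds1 stood at 3.68, 4.87 and 4.74 TPM. Tamm41 stood at 4.49, 4.50 and 3.75 TPM. The lowest Cds2 value was thus above the highest value of either other gene, while Cds1 and Tamm41 overlapped. Cds2 took 89.5 ± 1.35% of the summed TPM of the 3 synthases, Cds1 5.36 ± 0.907% and Tamm41 5.16 ± 0.817% (n = 3).

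Cds2 exceeded Cds1 by 4.07 ± 0.26 on the log2 scale (SD, n = 3), or 16.8-fold per kilobase of exon, and was higher in 3 of 3 libraries (limma adjusted p = 1.44e-95). In the fit of ratios to Cds1, 89.8% of 12296 genes passed the threshold of 0.05. Every ratio in that fit shares the counting error of the weakly expressed Cds1, so its p-values are too small, and over 9 alternatives the adjusted p ranged from 1.48e-162 to 5.74e-05. The ratio ranged from 3.94 to 5.34 over these alternatives, and was 5.34 with the coding sequence as the length and 5.28 without length correction. The 123, 173 and 151 counts of Cds1 limit the precision of this ratio. No window of 50 bases in the annotated transcripts of Cds1 occurred in those of any other gene, and 0.08% of the windows of Cds2 did, none of them in Cds1, so these paralogs share no stretch of that length.

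The windows around the annotated starts of this pair are shown because the genes encode the same activity at very different levels. RefSeq (GRCm38.p6) gives windows from 250 bases before to 50 bases after a start for 8 of the 9 genes, in 11 windows. Capitals mark letters matching any of 7 motifs searched on both strands, named here by the factor or element they are known for. ERR was searched as TNAAGGTCA. The core of NRF1 was searched as CGCANGCG. ETS was searched as CCGGAAG. SP1 was searched as GGGCGG. The E-box was searched as CACGTG. The TATA box was searched as TATAAA, and the CCAAT box as its name. None of the 24 matches overlapped another. The Cds1 window is chr5:101764880-101765179 on the + strand, and the Cds2 window, the first of 2 for that gene, is chr2:132262898-132263197 on the + strand.
Cds1: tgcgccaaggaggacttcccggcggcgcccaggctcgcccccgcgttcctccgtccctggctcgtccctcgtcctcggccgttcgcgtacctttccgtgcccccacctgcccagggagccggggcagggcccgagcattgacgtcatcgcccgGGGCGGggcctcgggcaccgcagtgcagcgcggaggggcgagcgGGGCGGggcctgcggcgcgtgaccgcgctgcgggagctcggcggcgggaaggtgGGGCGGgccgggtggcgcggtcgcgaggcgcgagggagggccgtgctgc
Cds2: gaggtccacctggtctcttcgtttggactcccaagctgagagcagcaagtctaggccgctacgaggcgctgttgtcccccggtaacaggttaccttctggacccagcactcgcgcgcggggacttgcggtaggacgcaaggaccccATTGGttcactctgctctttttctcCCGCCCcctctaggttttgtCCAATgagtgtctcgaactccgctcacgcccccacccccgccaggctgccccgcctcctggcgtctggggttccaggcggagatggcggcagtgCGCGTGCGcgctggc
The Cds1 window had a GC content of 79.0% and held 3 SP1 matches. The Cds2 window had a GC content of 64.7% and held 1 SP1 match and 1 NRF1 match, both on the opposite strand, and 2 CCAAT matches, the first of them on the opposite strand. The second Cds2 window, not printed, had a GC content of 49.7% and held 3 CCAAT matches and 0 SP1 or NRF1 matches. Over all 32851 windows the median GC content was 52.7%. SP1 letters occurred in 35.7% of them, CCAAT in 37.4% and NRF1 letters in 8.21%. Among the 11 windows of the cardiolipin genes SP1 letters were found in 7, CCAAT in 4 and NRF1 letters in 4 (of Cds2, Pgs1 and Pld6). The E-box was found in 2, ETS letters in 1, and ERR letters and the TATA box in 0. These last motifs occurred in 7.15%, 8.86%, 1.28% and 13.6% of all windows, in the order just given. These are matches of letters, and which start was used in these hearts was not measured.

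The 3 enzymes that carry CDP-diacylglycerol to cardiolipin lay in the middle of the set. Pgs1, which makes phosphatidylglycerol phosphate and commits the lipid to this route, stood at 14.8, 12.8 and 16.2 TPM in libraries 1, 2 and 3. Ptpmt1, the mitochondrial phosphatase that removes the phosphate, stood at 19.7, 18.6 and 16.5 TPM. Crls1, cardiolipin synthase itself, stood at 36.8, 31.3 and 31.4 TPM. Crls1 was therefore highest of the 3 in every library, and the lowest Ptpmt1 value lay just above the highest Pgs1 value.

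Crls1 exceeded Pgs1 by 1.19 ± 0.20 on the log2 scale (SD, n = 3), or 2.28-fold, in 3 of 3 libraries (limma adjusted p = 3.98e-06). Ptpmt1 exceeded Pgs1 by 0.33 ± 0.27 in 3 of 3 libraries (limma adjusted p = 0.0418), where 89.8% of 12296 genes differed from Pgs1 by the same rule. Ratios to Pgs1 share its error and their variance was pooled over genes, so these p-values may also be too small. Both differences rest on gene length. Crls1/Pgs1 was 0.53, 0.70 and 0.41 with the longest transcript, the coding sequence and the longest protein-coding transcript as the length. Without a length correction, Crls1/Pgs1 was -0.17 (limma adjusted p = 0.242, within a range of 2.15e-10 to 0.242 over 9 alternatives) and Ptpmt1/Pgs1 was -0.21 (limma adjusted p = 0.177, within a range of 0.0223 to 0.210 over 7 alternatives). The Ptpmt1 call was also lost without library 1, at 0.29, and without library 2, at 0.22. The exons of Ptpmt1 overlap those of Kbtbd4 on the opposite strand over 1657 bases, or 45.0% of its annotated exon, and 46.1% of its 50-base windows occurred in transcripts of other genes. Kbtbd4 had 672, 605 and 593 counts against 615, 618 and 491 for Ptpmt1, and since the strandedness was not given, reads of this pair cannot be told apart there. Pgs1 overlaps Dnah17 over 93 bases, and Dnah17 had 1, 3 and 5 counts.

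**Figure D1:**
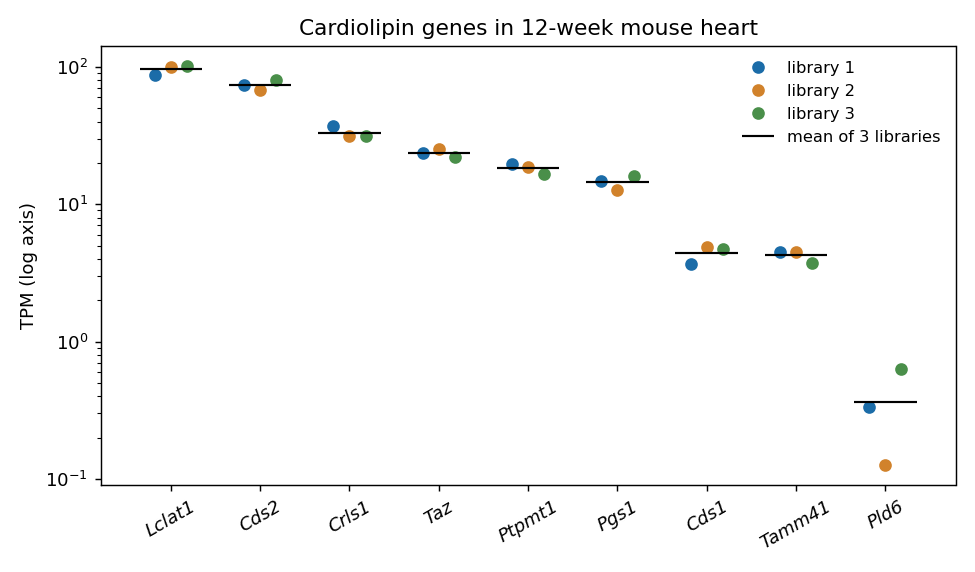
TPM on a log axis for each cardiolipin gene (x axis, ordered by mean), with a point for each of the 3 libraries and a bar for their mean. Lclat1 and Cds2 lie highest, at means of 96.0 and 74.2 TPM, Cds1 and Tamm41 overlap near 4 TPM and Pld6 lies lowest at 0.365 TPM.

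Of the enzymes that exchange the fatty acids of cardiolipin, the acyltransferase transcript was above the transacylase transcript. Lclat1 (also known as ALCAT1) encodes an acyltransferase of the endoplasmic reticulum that re-acylates lysocardiolipin and other lysophospholipids, and stood at 86.8, 99.5 and 102 TPM in libraries 1, 2 and 3. Taz, the mitochondrial transacylase that moves fatty acids from other phospholipids to monolysocardiolipin, stood at 23.5, 25.4 and 22.2 TPM. The ranges did not overlap. Taz was below Lclat1 by a log2 ratio of -2.01 ± 0.16 (SD, n = 3), which is 4.04-fold, and was lower in 3 of 3 libraries (limma adjusted p = 2.63e-07), where 95.8% of 12296 genes differed from Lclat1. The direction held over all 9 alternatives, but the size did not, at -1.25 with the longest transcript and -0.61 with the longest protein-coding transcript as the length. Taz has 22 annotated transcripts, 8 of them coding, and its merged exons span 5364 bases against 1851 for the longest coding transcript. No 50-base window of Taz or Lclat1 occurred in another gene.

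Pld6 was the only cardiolipin gene below the detection limit. It encodes an outer mitochondrial membrane phospholipase that has been reported to cleave cardiolipin to phosphatidic acid and is known for its part in germline piRNA production. It had 5, 2 and 9 counts, or 0.198, 0.0758 and 0.361 CPM. The exact 95% Poisson intervals were 1.62 to 11.7, 0.242 to 7.22 and 4.12 to 17.1 counts, and they cover counting error only. A difference of Pld6 between the libraries was not tested. Library 2 lay under the 3 counts that a count of 0 would allow, which is 0.114 CPM there. Without the filter of low counts Pld6/Crls1 had a log2 ratio of -6.61 (limma adjusted p = 0.000378), a size that depends on the 0.5 counts added to each value. The share of all genes that differed from Crls1 in that fit is not given, so this p-value has no background beside it.

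In the order of mean TPM the genes ran Lclat1, Cds2, Crls1, Taz, Ptpmt1, Pgs1, Cds1, Tamm41 and Pld6. Of the 8 neighbouring pairs in this order, Cds1 and Tamm41 alone had overlapping ranges, with Cds1 higher in 2 of 3 libraries. Tamm41/Cds1 had a log2 ratio of -0.06 ± 0.32 (SD, n = 3; 95% interval -0.44 to 0.32; limma adjusted p = 0.783). This interval comes from the fit of ratios to Cds1 and is too narrow for the same reason that its p-values are too small. With the longest transcript, the coding sequence or the longest protein-coding transcript as the length, Tamm41 was instead above Cds1, at 0.69, 0.82 and 2.11 on the log2 scale. Tamm41 stayed below Cds2 at -4.13 ± 0.25 (limma adjusted p = 4.77e-07), where 95.4% of 12296 genes differed from Cds2, and at -2.07 with the longest protein-coding transcript, which is 1168 bases for Tamm41 against 5276 bases of merged exon.

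Some neighbours changed places with the length used. Lclat1 was 1.29-fold above Cds2 in mean TPM, but Cds2 was above Lclat1 with the coding sequence as the length, at 156 against 128 TPM. Crls1 was 1.40-fold above Taz, and under each of the other 3 lengths Taz was above Crls1, for example at 46.2 against 24.2 TPM with the longest protein-coding transcript. Lclat1 and Cds2 took the top places, and Pld6 the lowest, under all 4 lengths. The wider gaps kept their order under all of them, with Cds2 2.24-fold above Crls1, Pgs1 3.29-fold above Cds1 and Tamm41 11.6-fold above Pld6 in mean TPM over all annotated exon.

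**Figure D2:**
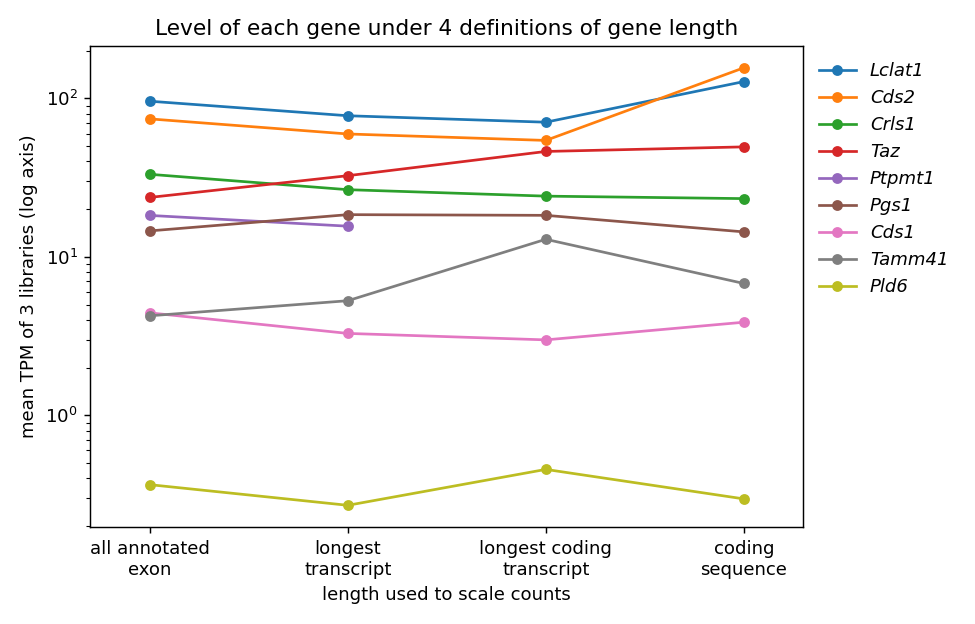
Mean TPM of 3 libraries on a log axis for each cardiolipin gene, with a line per gene across 4 ways of measuring gene length on the x axis. Taz lies at 23.7 TPM on the left and at 49.4 TPM on the right, Tamm41 lies at 4.25 TPM on the left and between 5.29 and 12.9 TPM elsewhere, and Cds2 and Lclat1 are on top throughout. Ptpmt1 has no coding transcript in the annotation and so lacks the last 2 points.

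**Figure D3:**
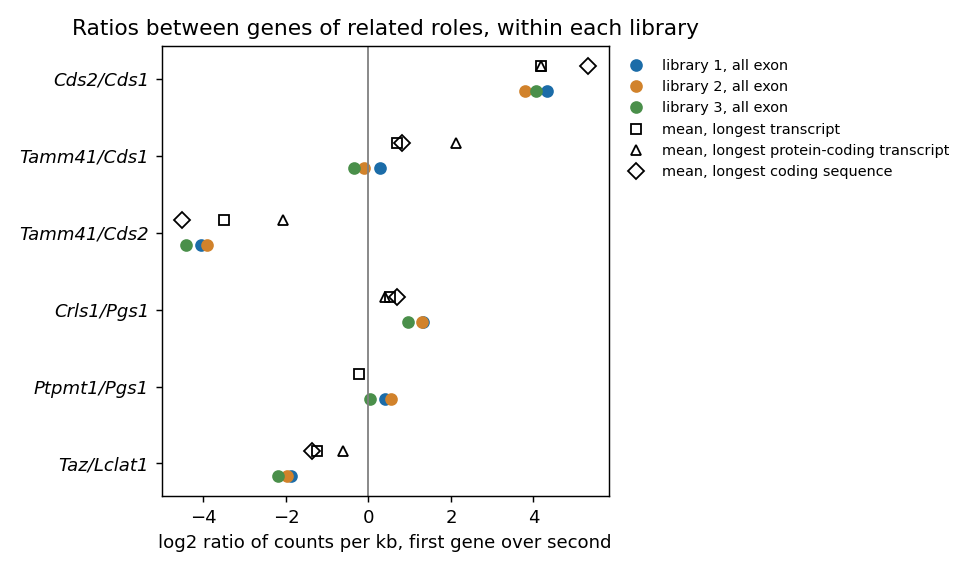
Log2 ratio of counts per kilobase (x axis) between genes of related roles, with filled points for the 3 libraries and open symbols for the mean under 3 other lengths. Cds2/Cds1 lies near 4 or above and Tamm41/Cds2 and Taz/Lclat1 lie below 0 throughout, while Tamm41/Cds1 and Ptpmt1/Pgs1 cross 0.

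Between the libraries the 8 detected genes spread about as much as all genes tested. Their largest CPM ratio between any 2 libraries, after TMM normalization, was smallest for Cds2 and reached 1.34 for Cds1. The SD of log2 CPM had a median of 0.15 over these 8 genes, against 0.14 over all 12521 genes tested. By edgeR, 0 of the 8 genes differed between libraries more than genes of their level after Benjamini-Hochberg adjustment over all genes, 0 did at an unadjusted p under 0.05 (lowest unadjusted p = 0.344, Ptpmt1), and 0 did with DESeq2's dispersion trend. Of all genes tested 0.591% passed after adjustment by edgeR, and 64 of 12521 passed with DESeq2's trend. With so few passing, 0 of 8 says little about these genes. The share of all genes at an unadjusted p under 0.05 is not given. Pld6 did not pass edgeR's filter of low counts and was not tested.

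The spread was larger than counting noise for most of these genes, as it was for most genes of the table. By a Poisson deviance test 6 of the 8 passed an adjusted p of 0.05, against 62.9% of all genes. They were Taz, Crls1, Ptpmt1, Pgs1, Lclat1 and Cds2, with adjusted p from 6.76e-10 for Lclat1 to 0.0105 for Pgs1. Tamm41 (adjusted p = 0.0515) and Cds1 (adjusted p = 0.0601), the genes with the fewest counts of the 8, did not pass. Lclat1 was lowest in library 1, with 142, 166 and 161 CPM in libraries 1, 2 and 3. Taz was highest in library 2 and lowest in library 3, at 42.4, 46.6 and 38.6 CPM. Library 3 was lowest for 4 of the 8 genes, namely Taz, Crls1, Ptpmt1 and Tamm41, and each other library was lowest for 2. How many of all genes were lowest in each library is not given, so these counts have no background beside them. The differences of the 8 genes between libraries were at most 1.34-fold. Several of the Poisson calls changed with a library left out, which also lowers the power of the test and so cannot single out that library. Without library 1, Crls1 (adjusted p = 0.414) and Lclat1 (0.100) no longer passed, without library 2 Pgs1 (0.619) and Cds2 (0.332), and without library 3 Taz (0.0732) and Ptpmt1 (0.599). Tamm41 passed without library 1 (0.0421) and Cds1 without library 3 (0.0338).

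**Figure D4:**
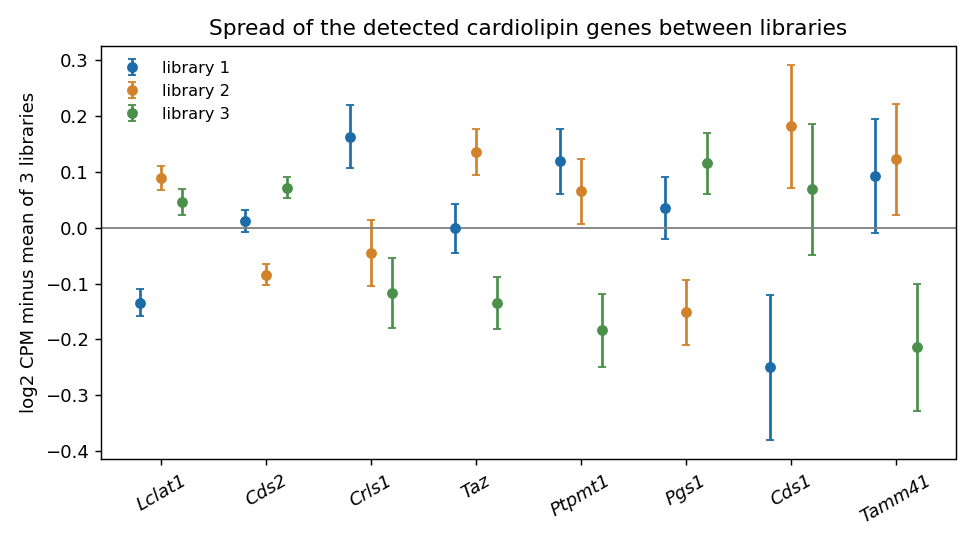
Log2 CPM of each detected cardiolipin gene minus its mean over the 3 libraries (y axis), with a point for each library and bars of 1 counting SD. The deviation farthest from 0 is -0.25, of Cds1 in library 1, and Cds1 and Tamm41 have the widest bars.

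Most genes around the pathway were detected outside the germline list. The lists held 61 genes, 59 of them in the table, and 50 were detected (84.7%), against 71.3% of all genes by the same rule. They were chosen with earlier results of these data known, so these shares only describe them. Of 13 genes that supply phosphatidic acid 12 were detected, with a median of 31.6 TPM. Agpat1, an acyltransferase that makes phosphatidic acid, stood at 107 ± 5.28 TPM, Agpat3 at 95.6 ± 7.85 TPM and Gpam, the glycerol-phosphate acyltransferase of the outer mitochondrial membrane, at 92.8 ± 6.62 TPM (n = 3). Agpat3 and Gpam were within 1.1 times of Lclat1. Such matches, here and below, hold for TPM over all annotated exon and were not checked under other lengths. Those lengths moved Taz, for example, from 23.7 TPM to 32.5, 49.4 or 46.2 TPM. Gpat2 had 0, 0 and 4 counts. Agk, which makes phosphatidic acid inside mitochondria from diacylglycerol, stood at 4.64 ± 0.300 TPM, within 1.1 times of Tamm41 and of Cds1. Gpat4, an acyltransferase of the endoplasmic reticulum, stood at 31.6 ± 1.95 TPM, within 1.1 times of Crls1, and Agpat2 at 75.5 ± 2.07 TPM, within 1.1 times of Cds2.

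Of 10 genes for proteins that carry lipids to the inner membrane or hold it together 9 were detected, with a median of 66.0 TPM. Slc25a4, the heart ATP/ADP carrier that binds cardiolipin tightly, stood at 8421 ± 94.1 TPM, and the prohibitins Phb and Phb2, which form ring scaffolds in the inner membrane, at 375 ± 13.1 and 176 ± 4.23 TPM. Prelid1 and Triap1, which together move phosphatidic acid across the intermembrane space, stood at 62.5 ± 1.91 and 39.7 ± 6.38 TPM (named after their values were seen). Prelid3a had 3, 7 and 5 counts. Stoml2, an inner membrane protein that binds cardiolipin, stood at 69.5 ± 4.50 TPM, within 1.1 times of Cds2.

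All 9 genes of cardiolipin turnover and translocation were detected, with a median of 23.3 TPM. Hadha, the trifunctional protein subunit of fatty acid oxidation that is also reported to acylate monolysocardiolipin, stood at 655 ± 22.0 TPM. Hsd17b10, a mitochondrial dehydrogenase, stood at 460 ± 12.2 TPM. Pnpla8, a mitochondrial phospholipase, stood at 23.3 ± 3.51 TPM, within 1.1 times of Taz. Lpgat1, an acyltransferase, stood at 34.4 ± 6.68 TPM, within 1.1 times of Crls1, and Abhd18 at 14.8 ± 1.83 TPM, within 1.1 times of Pgs1.

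The 9 genes that use CDP-diacylglycerol or phosphatidic acid for other lipids were also all detected, with a median of 23.2 TPM. The triglyceride enzyme Dgat2 stood at 409 ± 9.59 TPM, the phosphatidic acid phosphatase Lpin1 at 83.8 ± 14.2 TPM and Cdipt, phosphatidylinositol synthase, at 51.5 ± 6.88 TPM. Pisd, which makes phosphatidylethanolamine in mitochondria, stood at 23.2 ± 0.808 TPM beside Taz at 23.7 ± 1.63 TPM, both over all annotated exon. Ptdss2, a phosphatidylserine synthase, stood at 13.4 ± 0.737 TPM, within 1.1 times of Pgs1. All 10 regulators of mitochondrial genes were detected, led by the nuclear receptor Esrra (124 ± 3.88 TPM), the coactivator Ppargc1a (108 ± 27.1 TPM) and Ppara (77.9 ± 4.25 TPM), the last within 1.1 times of Cds2. Esrrb (23.2 ± 2.29 TPM) was within 1.1 times of Taz and Ppargc1b (18.1 ± 2.93 TPM) within 1.1 times of Ptpmt1.

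The germline partners of Pld6 were mostly below the limit, as Pld6 was. Among 8 measured piRNA pathway genes 1 was detected, Mov10l1, an RNA helicase that also has a heart-expressed form, at 1895, 1773 and 1733 counts (50.6 ± 3.23 TPM). The PIWI protein gene Piwil2 had 14, 9 and 24 counts and the germ cell helicase Ddx4 had 4, 5 and 4. Piwil4 had 0 counts in every library, which allows up to 0.114 to 0.120 CPM, and Tdrd9 had 1, 0 and 1 counts. Levels of these lists and of the cardiolipin genes were not tested against each other.

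**Figure D5:**
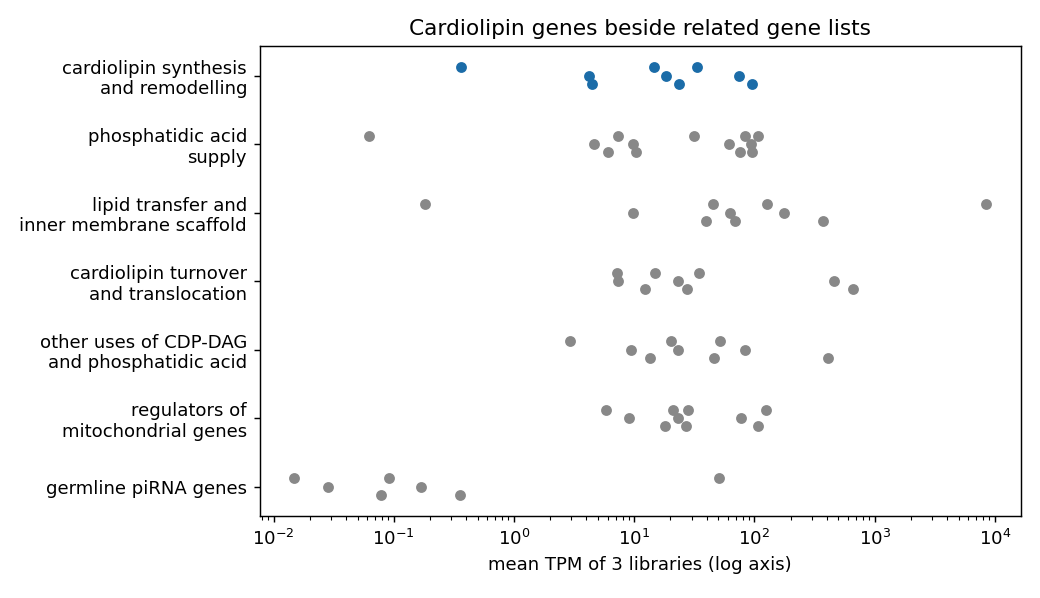
Mean TPM of 3 libraries on a log axis, with a point for each gene of the cardiolipin set (blue) and of 6 related lists (grey). The cardiolipin genes span 0.365 to 96.0 TPM, and the genes of phosphatidic acid supply span 0.0628 to 107 TPM. Piwil4, listed at 0, is not drawn.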

How the data were processed

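The deposited values are raw counts, in whole numbers, for each gene symbol in each of the 3 libraries. RSEM, Bowtie2 2.2.5, HISAT2 2.0.4 and the build GRCm39 appear in the submitters' processing notes with no role or order, so these may be rounded RSEM estimates. Per the labels' protocols, RNA was taken with Trizol and poly(A) RNA was captured and fragmented before adaptors were added. Neither read length nor strandedness is stated there.

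CPM used library totals. TPM used the merged exon length of GENCODE M21 (an earlier build, GRCm38, used for lengths, chromosomes and overlaps only), matched by symbol for 16077 genes (96.9%) and all 9 cardiolipin genes. For ratios, 0.5 counts were added and the log2 ratio per kilobase of every gene to the second gene of a pair was fitted with limma 3.58.1 (two-sided, Benjamini-Hochberg over all genes, threshold 0.05). All ratios in a fit share the error of the second gene, so p-values may be too small in each fit, not only that to Cds1. Of 7 planned pairs 6 passed the filter of low counts. Pld6/Crls1 was fitted only without it. With 3 libraries the smallest p of an exact sign-flip test is 0.25, and that test was left out. Variation between libraries used an intercept-only edgeR 4.0.16 model with TMM, the trended dispersion and its deviance, after edgeR's default filter. Excess over counting noise used the Poisson deviance of the same genes. Alternatives covered normalization, filter, gene length, pseudocount, detection limit, DESeq2 1.42.0's dispersion trend and leaving out each library. The longest protein-coding transcript was added as a length after seeing the data. R 4.3.3 and Python 3.11.15 were used. The fits were also run on simulated data, where for ratios only the error of the log2 ratio was checked and not the p-values.

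The cardiolipin genes and all lists were chosen with earlier results of these data known. The text names all 9 genes and, of each related list, up to 3 genes of highest mean TPM, up to 2 below the limit, and genes within 1.1 times of a cardiolipin gene. No likeness of pattern was computed over 3 libraries.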

Additional observations from a re-analysis of the deposited data

How the results depend on the processing

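Gene length was the choice that moved most results. The number of the 8 neighbouring pairs that stayed in the same order was 5 with the longest transcript, 3 with the coding sequence, 4 without length correction and 4 taking the longest protein-coding transcript (chosen after seeing the data). Taz/Ptpmt1 and Ptpmt1/Pgs1 could not be ordered with the coding sequence or the longest protein-coding transcript, for lack of a coding length of Ptpmt1. They count there as not kept, though no change of order was seen. In the same 4 settings, in the order first given, the Cds2 share of the CDP-diacylglycerol synthases was 87.4%, 93.6%, 94.4% and 77.3%. Tamm41/Cds1 turned to 0.69, 0.82 and 2.11 with the longest transcript, the coding sequence and the longest protein-coding transcript. Ptpmt1/Pgs1 turned to -0.24 with the longest transcript and -0.21 with no length correction, and Crls1/Pgs1 to -0.17 with no length correction. Ptpmt1/Pgs1 (0.33) missed the threshold without the filter, and leaving out each library gave 0.22 to 0.48. Cds2/Cds1, Tamm41/Cds2 and Taz/Lclat1 kept direction and call in all 9 alternatives, at 3.94 to 5.34, -4.92 to -2.07 and -2.08 to -0.61. Ptpmt1 had no coding length. Genes called as varying between libraries numbered 126 with no filter and 17 to 51 with each library left out, with 0 cardiolipin genes among them each time. Genes beyond counting noise numbered 4882 to 5587 with each library left out, with 4 to 5 cardiolipin genes. With all 3 libraries they were 7878 of 12521 genes (62.9%) and 6 of 8 cardiolipin genes, so both counts fell. How many genes were tested with a library left out is not given, so no share stands beside those counts. The mean summed CPM and the mean CPM of each gene stayed within 1 SD under TMM and DESeq2 size factors. These factors lay between 0.993 and 1.01, so the means could hardly have moved and this says little about normalization. Pld6, at 0.212 CPM, was 0.137 CPM without library 3. At a limit of 5 CPM 7 cardiolipin genes were detected. No paired comparison of groups was possible because there was 1 group, while the ratios of genes were taken within each library. Depth limits Pld6, Cds1 and Tamm41 most.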
